A study of Mus musculus with 14 samples.

Results

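Cell-cycle and DNA replication genes were followed across cultures of mouse lung and skin fibroblasts with and without Rel, the gene of the NF-kappaB subunit c-Rel. The set holds 42 genes chosen by name out of 48795 genes in the count table: 25 that act in mitosis and 17 that act at the start of or during DNA synthesis (S phase). All 42 passed the filter on low counts. The cells grew out of pieces of tissue from male C57BL/6J mice or from mice labelled Rel -/- on the same strain, aged 8 to 10 weeks, and were harvested after 14 days on plastic without stimulation. The labels give 5 wild-type lung libraries (1, 23, 3, 4 and 5), 4 Rel-null lung libraries (7, 8, 9 and 10), 2 wild-type skin libraries (11 and 22) and 3 Rel-null skin libraries (18, 19 and 20). Whether the libraries of a group are different animals is not given, and a p-value here measures no more than the spread between libraries, which may be technical. Library values below are always in the order given here.

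A cell that commits to divide switches on its S-phase genes first, through E2F transcription factors that are held back by RB proteins until cyclin-dependent kinases phosphorylate RB. The mitotic genes follow later and depend on B-MYB and FOXM1, which act at promoters that carry a CHR element and CCAAT boxes bound by the factor NF-Y. In resting cells the DREAM complex keeps both groups silent. Fibroblasts leaving a tissue explant move and divide, so transcripts of these genes report how many cells of a culture are cycling and where in the cycle they stand. In bulk RNA, fewer cycling cells and less RNA per cycling cell cannot be told apart.

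Several libraries stood apart before any comparison of cell-cycle genes. Totals ran from 12780350 to 30987933 counts, except 2663437 in wild-type skin 22. Wild-type lung 4, Rel-null lung 7, wild-type skin 11 and Rel-null skin 18 had the most gaps, with 3.37% to 11.5% of expressed genes at 0 counts (genes that average at least 5 CPM in the other libraries of the tissue) against at most 0.728% in the other 10 libraries. Levels are in CPM, the count of a gene scaled to a common library total. That of Rel ranged from 1.10 to 17.3 for wild-type lung and from 0.0651 to 4.06 for cultures labelled Rel-null lung. In wild-type skin it was 11.5 and 10.9 CPM. The library labelled Rel-null skin 18 held 0.0349 CPM of Rel, but those labelled Rel-null skin 19 and 20 held 9.42 and 9.47 CPM, near wild-type skin. The libraries labelled Rel-null lung 8, 9 and 10, with 4.06, 1.39 and 3.80 CPM, lay above wild-type lung 4 at 1.10 CPM and below the other wild-type lung libraries, which started at 6.27 CPM. Rel therefore does not follow the labels in skin 19 and 20 and does not separate the lung groups, and genotype names below are those of the labels. The lowest Rel values, 1 count each in Rel-null skin 18 and Rel-null lung 7 and 1.10 CPM in wild-type lung 4, all lay in libraries with the most gaps. Whether they are gaps too was not tested. Wild-type lung 1 read Xist at 64.5 CPM and wild-type skin 22 at 732 CPM, although the mice are described as male. Rel-null lung 10 carries a skin term in its treatment label and lung in its title and source, and it was kept as lung. The 9 fibroblast markers were read in all 14 libraries, at a summed 11105 to 157368 CPM. In lung, 12 leukocyte and macrophage markers summed to 5718 to 26249 CPM, against 39.4 to 167 CPM in skin. In skin, 15 keratinocyte markers summed to 89.5 and 31.7 CPM in wild type and to 3213, 1344 and 2275 CPM in Rel-null.

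The promoters are shown first because the elements named above are written in them and were read without use of the counts. RefSeq windows from 250 bases before to 50 bases after the start site were at hand for 34 of the 42 genes, 20 mitotic and 14 S-phase. Windows were searched on both strands for the CHR element (TTTGAA or TTCGAA), the CCAAT box (CCAAT) and an E2F site (TTNNCGC, with each N being G or C), and matches may share letters, as they do in the joined E2F runs of Mcm5 and Mcm6. Below are stretches of 100 bases from the upstream side of 4 mitotic and 3 S-phase genes, chosen because they hold the motifs closely spaced. Coordinates are on GRCm38.p6, letters are from RefSeq and read 5′ to 3′ on the strand of the gene, and capitals mark a motif on either strand, so that a CCAAT box on the other strand reads ATTGG and a CHR element TTCAAA.
Mki67, chr7:135716429-135716528, minus strand: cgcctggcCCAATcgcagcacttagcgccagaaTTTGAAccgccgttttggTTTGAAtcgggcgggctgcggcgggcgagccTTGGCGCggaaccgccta
Top2a, chr11:99024199-99024298, minus strand: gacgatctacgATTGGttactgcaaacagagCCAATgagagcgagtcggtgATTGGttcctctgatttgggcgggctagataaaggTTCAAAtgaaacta
Kif11, chr19:37376273-37376372, plus strand: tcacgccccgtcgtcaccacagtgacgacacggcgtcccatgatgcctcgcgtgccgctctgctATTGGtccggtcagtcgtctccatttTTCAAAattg
Cdc20, chr4:118437353-118437452, minus strand: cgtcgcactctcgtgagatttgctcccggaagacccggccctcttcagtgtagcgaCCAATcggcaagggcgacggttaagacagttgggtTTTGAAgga
Mcm5, chr8:75109340-75109439, plus strand: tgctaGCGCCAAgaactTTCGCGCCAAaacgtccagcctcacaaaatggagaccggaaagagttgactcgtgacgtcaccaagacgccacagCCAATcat
Mcm6, chr1:128359725-128359824, minus strand: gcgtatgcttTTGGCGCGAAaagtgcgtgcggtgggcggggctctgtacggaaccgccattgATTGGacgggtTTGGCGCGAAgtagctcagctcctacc
Rrm1, chr7:102441586-102441685, plus strand: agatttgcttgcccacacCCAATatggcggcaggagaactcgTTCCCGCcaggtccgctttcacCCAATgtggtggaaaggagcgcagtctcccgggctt

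In Cdc20, Top2a and Kif11 a CHR element lay 18, 23 and 19 bases before the start site, with a CCAAT box upstream of it. None of the 7 stretches overlaps a GENCODE exon. A CHR element was found in 16 of 20 mitotic windows and 2 of 14 S-phase windows, against 19.2% of all 32851 RefSeq promoter windows of the same length. Windows with both a CHR element and a CCAAT box numbered 16 of 20 mitotic and 2 of 14 S-phase, against 7.52% of all windows. The E2F site showed the opposite split, with 3 of 20 mitotic windows and 8 of 14 S-phase windows, against 9.57% of all. Mcm7 and Mcm2 were the 2 S-phase genes with a CHR element, and Mki67, Ccnb1 and Cdk1 the 3 mitotic genes with an E2F site. The window of Ccne1, the cyclin E gene described further on, held none of the 3 motifs as spelled here. A match is a run of letters and was not tested for binding.

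Cell-cycle transcripts were read in every culture. Genes were set side by side on CPM per kilobase of exon, with the exons of all annotated transcripts of a gene joined. On this scale the highest median over the 14 libraries was that of Pcna (35.8), the sliding clamp of DNA polymerase. Rrm2 (23.4), the regulated subunit of ribonucleotide reductase, and E2f1 (13.7) came next. Ccnb2, which encodes a mitotic cyclin, was highest among the mitotic genes at 8.37, and Cenpf, a kinetochore gene, was lowest of all at 0.424. The S-phase group had a median of 7.18 and the mitotic group 4.11 on this scale. The joined length can be longer than the transcript that is read, so the order of genes and groups depends on the annotation. Rrm1 had the highest median CPM (108) but stood at 9.83 per kilobase, over 11012 bases of exon. Reads of 15 of the 42 genes, among them Mki67, Top2a, Cdc20 and Tk1, are uncertain because a gene on the opposite strand overlaps them and the strand setting of the counting is not known. A gene on the same strand overlaps 8 of the 42, in part the same ones, among them Foxm1, Cdt1 and Rrm1. Their reads may be uncertain under any strand setting.

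**Figure D1:**
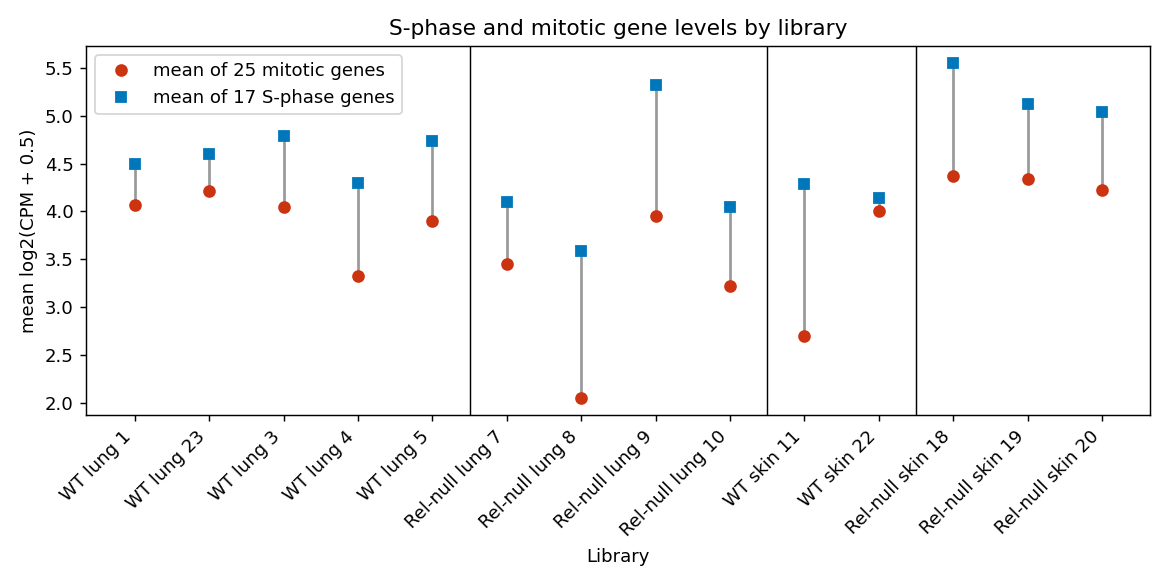
Mean log2(CPM + 0.5) of the 25 mitotic genes (circles) and the 17 S-phase genes (squares) in each of the 14 libraries, with vertical lines between the 4 groups. Rel-null lung 8 has the lowest value of both groups of genes, the 3 Rel-null skin libraries lie close together at the top for mitotic genes, and the gap between the symbols differs most between the 2 wild-type skin libraries.

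Averaged per library as mean log2(CPM + 0.5), the mitotic genes stood at 4.07, 4.21, 4.05, 3.33 and 3.90 in wild-type lung and at 3.45, 2.05, 3.95 and 3.22 in Rel-null lung. In skin they stood at 2.69 and 4.00 in wild type and at 4.37, 4.34 and 4.23 in Rel-null. Rel-null lung 8 was therefore far below every other library, and the 3 Rel-null skin libraries were the 3 highest. The S-phase genes stood at 4.49, 4.60, 4.78, 4.30 and 4.74 in wild-type lung and at 4.10, 3.59, 5.32 and 4.04 in Rel-null lung. Their values in skin were 4.29 and 4.14 in wild type and 5.56, 5.13 and 5.04 in Rel-null. On this measure 3 of the 4 Rel-null lung libraries lay below all wild-type lung libraries, and Rel-null lung 9 lay above them all. Sums of the S-phase genes ordered the libraries otherwise. Rel-null lung 7 (855 CPM) and 9 (945 CPM) lay above the wild-type lung range of 525 to 688 CPM. Rel-null lung 8 (366 CPM) and 10 (381 CPM) lay below it.

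The 2 phases did not move as a block. The difference between the S-phase and the mitotic average, which can be compared between libraries but not read as a level, was 0.672 ± 0.256 in wild-type lung (SD, n = 5) and 1.10 ± 0.425 in Rel-null lung (n = 4). It was 0.929 ± 0.227 in Rel-null skin (n = 3). The 2 wild-type skin libraries held the ends of the range, with 1.59 in library 11 and 0.137 in library 22. Counts of 0 enter these averages. Over the 17 mitotic and 15 S-phase genes read in every library, the averages were 4.51 and 4.38 in Rel-null lung 7. They were 2.32 and 4.00 in Rel-null lung 8, 3.20 and 4.74 in wild-type skin 11, and 4.30 and 4.40 in wild-type skin 22. On these genes neither end of the range was a wild-type skin library. Wild-type skin 11 read several mitotic genes at or near 0 (Aurka and Ttk 0 counts, Ccnb2 2 counts, Ccnb1 0.975 CPM) beside 170 CPM of Rrm2, 69.2 CPM of Mcm4 and 88.1 CPM of E2f1, the highest level of those 3 genes in any wild-type library.

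**Figure D2:**
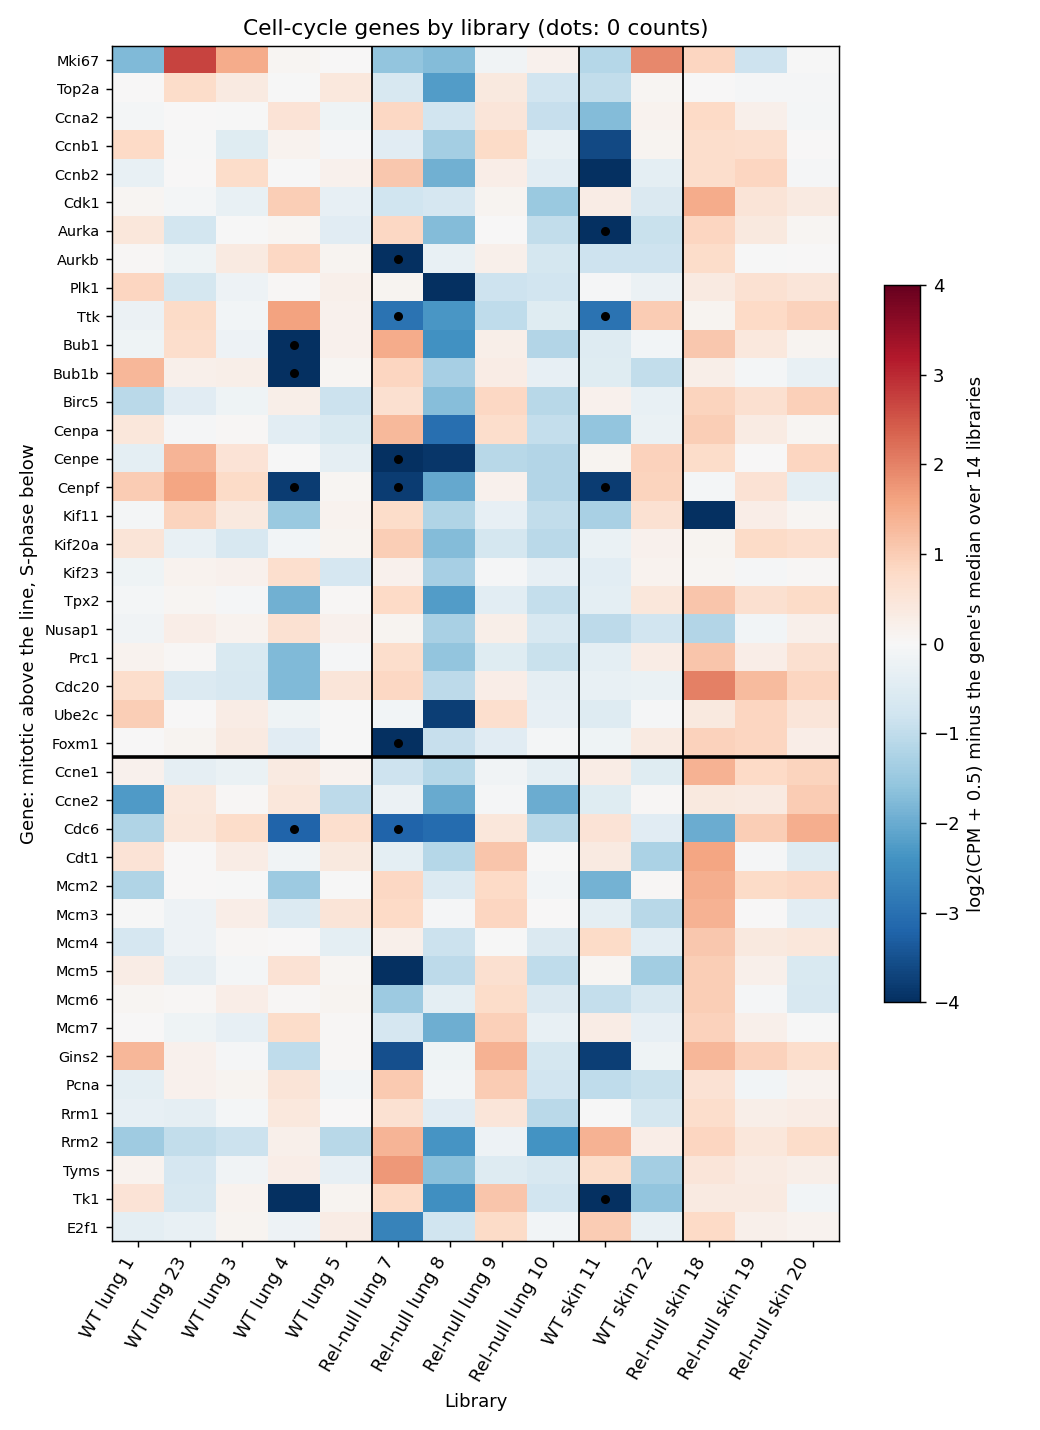
Log2(CPM + 0.5) of each gene in each library minus the median of that gene over the 14 libraries, with mitotic genes above the horizontal line and S-phase genes below it; dots mark 0 counts and the colour scale ends at -4 and 4. The column of Rel-null lung 8 is blue for nearly every mitotic gene, and all 14 dots lie in wild-type lung 4, Rel-null lung 7 and wild-type skin 11.

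Counts of 0 were confined to these gap libraries, which were themselves picked by their share of expressed genes at 0, cell-cycle genes included. A 0 stood somewhere in 10 of the 42 genes, and all 14 such values lay in the 4 libraries with the most gaps (none in Rel-null skin 18), while the other 10 libraries had no 0. In wild-type lung 4, Bub1 and Bub1b, the checkpoint kinase and its partner, read 0 beside 65.4 CPM of Cdk1. In Rel-null lung 7, Foxm1 and Aurkb read 0, while Rrm2 stood at 166 CPM and Tyms at 81.4 CPM. Over the 17 mitotic genes read in every library, Rel-null lung 7 had the highest lung average (4.51), against 3.45 over all 25.

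The first comparison set lung libraries labelled Rel-null against those labelled wild type. In Rel-null lung, 20 of 25 mitotic genes and 10 of 17 S-phase genes had a log2 fold change below 0, where 55.0% of all tested genes did. The median was -0.39 for mitotic and -0.11 for S-phase genes, against -0.08 for all 16408 genes. No gene of either group passed the threshold (edgeR quasi-likelihood test, Benjamini-Hochberg adjustment, lowest adjusted p = 0.781), and 0.0% of all genes did. Of the 42, 3 mitotic genes and no S-phase gene had an unadjusted edgeR p under 0.05 with a lower level, where 4.49% of all genes did. No gene of the 42 had one with a higher level, where 1.83% of all genes did. Neither DESeq2 nor limma-voom called any of the 42, where they called 0.311% and 0.0366% of all genes. Markers of cell types leaned with the groups as well, with 10 of 12 leukocyte and macrophage markers above 0 (median 0.69) and 8 of 9 fibroblast markers below 0 (median -0.63), none past the threshold. Summed leukocyte and macrophage markers ran from 5718 to 20778 CPM in wild-type and from 7543 to 26249 CPM in Rel-null lung, with none of the 12 at 0. Summed fibroblast markers ran from 28672 to 157368 CPM and from 23554 to 69546 CPM, and the part of these cells in the result was not tested.

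Mki67, which encodes the chromosome-coating protein Ki-67 of cycling cells, read 3.35, 85.0, 36.5, 13.4 and 12.7 CPM in wild-type lung. In Rel-null lung it read 3.94, 3.42, 11.4 and 14.3 CPM. Wild-type lung 23 and 3 were far above the rest, and wild-type lung 1 was the lowest of all 9, so the groups overlapped. The log2 fold change was -1.87 ± 0.88 (SE, two-sided exact permutation p = 0.246). Top2a, the topoisomerase that untangles sister chromatids, read 57.4, 95.3, 73.4, 56.5 and 77.2 CPM in wild-type lung and 36.3, 11.7, 75.4 and 33.6 CPM in Rel-null lung. Rel-null lung 9 lay among the wild-type libraries and the other 3 lay below them all. Its log2 fold change was -0.87 ± 0.41 (two-sided exact permutation p = 0.0397, and 0.717 after Benjamini-Hochberg adjustment).

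The cyclin B and cyclin-dependent kinase that drive entry into mitosis overlapped between genotypes. Ccnb1 read 30.6, 17.1, 12.3, 19.0 and 16.7 CPM in wild-type lung and 12.5, 6.44, 29.9 and 13.9 CPM in Rel-null lung. Rel-null lung 8 was lowest, and Rel-null lung 9 was just under the highest wild-type library. Cdk1 read 34.8, 30.8, 26.8, 65.4 and 25.7 CPM against 18.6, 20.3, 35.7 and 11.4 CPM, with 3 of 4 Rel-null libraries below every wild-type one. Its log2 fold change was -0.77 ± 0.42 (exact permutation p = 0.103).

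Among the mitotic kinases, Plk1 read 31.4, 10.2, 14.9, 17.5 and 19.5 CPM in wild-type lung and 18.6, 0.0913, 9.35 and 9.83 CPM in Rel-null lung. The value of Rel-null lung 8 rested on 2 counts, and without counting it the groups still overlapped through library 7. Ttk, the kinase that starts the spindle checkpoint, read at most 2.29 CPM in Rel-null lung and at least 2.83 CPM in wild-type lung. Its groups did not overlap, and the exact permutation p was 0.00794, the smallest these libraries allow. Adjusted over all genes by Benjamini-Hochberg, no permutation p was below 0.637.

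Cenpe, the kinetochore motor that brings chromosomes to the spindle equator, had the largest negative fold change of the 42 genes. It read 6.64, 24.0, 13.3, 8.83 and 6.84 CPM in wild-type lung and 0, 0.137, 3.84 and 3.67 CPM in Rel-null lung. Every Rel-null library lay below every wild-type library (exact permutation p = 0.00794). The log2 fold change was -2.64 ± 1.13 with an edgeR adjusted p of 0.781 (Benjamini-Hochberg). Cenpe and Ttk were the 2 genes of the 42 whose lung groups did not overlap, both lower in Rel-null, where 1.43% of all tested genes were. Both have a count of 0 in the gap library Rel-null lung 7.

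Aurka, the centrosome kinase, read 21.1, 8.97, 14.99, 15.9 and 11.0 CPM in wild-type lung and 27.1, 4.15, 15.3 and 7.39 CPM in Rel-null lung. Cdc20, the activator of the anaphase-promoting complex, read 25.2, 10.3, 9.68, 4.12 and 21.4 CPM against 27.6, 7.12, 18.6 and 11.7 CPM. Both were highest in Rel-null lung 7, and neither separated the genotypes. Foxm1, the transcription factor of mitotic genes, read 11.3, 12.3, 14.6, 8.12 and 11.2 CPM in wild-type lung and 0, 5.75, 8.17 and 10.5 CPM in Rel-null lung. Its log2 fold change was -0.91 ± 0.92, and the groups overlapped through wild-type lung 4. All 6 spindle motors and microtubule bundlers (Kif11, Kif20a, Kif23, Tpx2, Nusap1, Prc1) had fold changes below 0, between -0.53 and -0.01.

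Within lung, 1 library accounted for many of the lowest mitotic values. Rel-null lung 8 had the lowest level of 12 of 25 mitotic genes among the 9 lung libraries and of 18 among the 4 Rel-null ones. Its 25 mitotic genes summed to 138 CPM, against 256 to 537 CPM in the other 3 Rel-null and 411 to 571 CPM in the wild-type lung libraries. That library also had the highest sum of leukocyte and macrophage markers (26249 CPM), and the part of those cells in the result was not tested. Without it the mitotic median was -0.14, and 11 of 25 mitotic genes had a fold change above 0 in place of 5. Without Rel-null lung 10 these were -0.23 and 9, and without Rel-null lung 7 they were -0.64 and 1. Without the 4 gap libraries the median was -0.66, and 1 of 25 was above 0.

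S-phase genes in lung showed no common direction, and their median was 0.13 without Rel-null lung 8 and -0.67 without Rel-null lung 9. Ccne1, the cyclin E that triggers entry into S phase, read 20.3, 14.0, 14.8, 23.3 and 20.0 CPM in wild type and 10.0, 7.99, 16.3 and 13.8 CPM in Rel-null. Again 3 of 4 Rel-null libraries lay below all wild-type libraries (log2 fold change -0.62 ± 0.41, exact permutation p = 0.0556). Mcm2, a subunit of the replicative helicase, lay the other way, with 11.8, 28.1, 27.4, 9.72 and 27.1 CPM in wild type and 49.9, 18.8, 48.9 and 25.9 CPM in Rel-null (0.78 ± 0.47, exact permutation p = 0.159). Mcm3 read 37.7, 32.6, 46.1, 26.0 and 55.1 CPM in wild type and 65.7, 37.0, 68.6 and 38.8 CPM in Rel-null. Rel-null lung 7 and 9 were the highest libraries for both helicase genes.

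Mcm5, another helicase subunit, read 39.0, 24.9, 30.1, 48.1 and 33.9 CPM in wild-type lung and 0.0607, 15.1, 49.98 and 15.5 CPM in Rel-null lung, so 1 Rel-null library was above all wild-type libraries and 3 below them all. The lowest value is 1 count in Rel-null lung 7, where Mcm2 and Mcm3 were high. Pcna read 65.7, 95.5, 91.6, 123 and 80.1 CPM in wild type and 176, 78.9, 176 and 50.7 CPM in Rel-null. Rrm2 read 23.7, 32.2, 35.3, 74.0 and 29.4 CPM against 166, 12.2, 55.8 and 12.0 CPM. Rel-null lung 7 and 9 were high and 10 was lowest for both genes. E2f1, an activator of S-phase genes, read 32.6, 34.9, 46.1, 37.0 and 53.0 CPM against 6.31, 24.7, 72.7 and 40.2 CPM, again with the Rel-null libraries on both sides of the wild-type range. The 4 nucleotide-supply genes (Rrm1, Rrm2, Tyms, Tk1) had fold changes between 0.08 and 0.66, with SEs from 0.32 to 1.17.

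**Figure D3:**
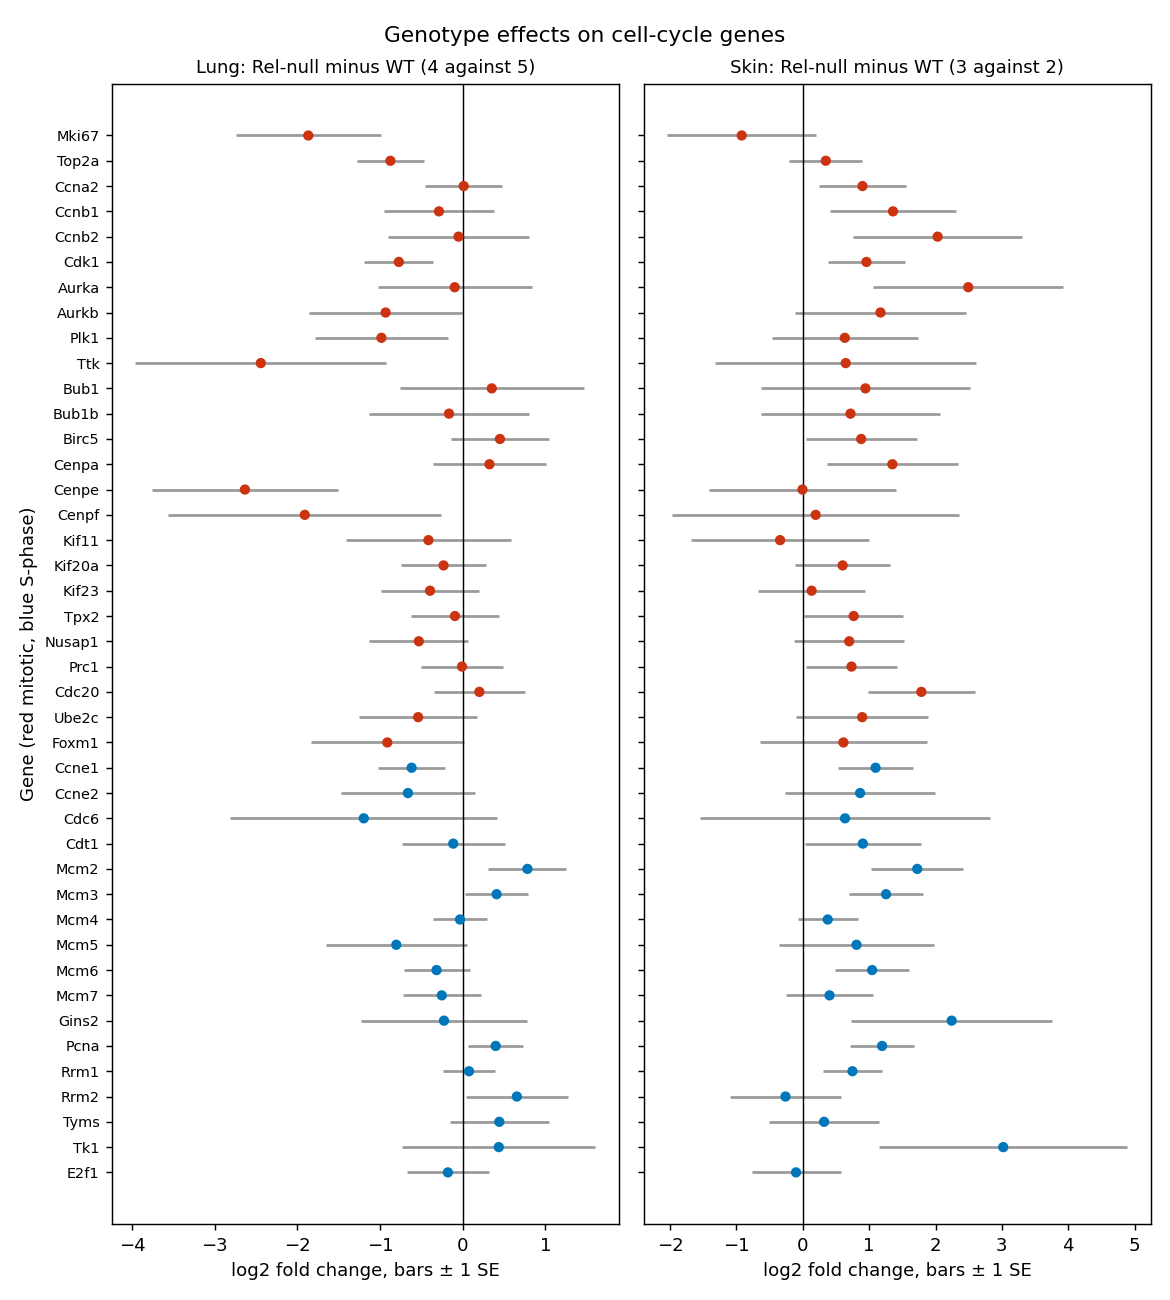
Log2 fold changes (Rel-null minus wild type, bars ± 1 SE) of the 42 genes in lung (left, 4 against 5 libraries) and skin (right, 3 against 2); red points are mitotic and blue points S-phase genes, and the 2 axes differ in range. Most lung points lie left of 0 for mitotic genes, most skin points lie right of 0 for both groups, and no gene passed the adjusted threshold in either panel.

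The same question in skin gave the opposite lean. In libraries labelled Rel-null skin, 22 of 25 mitotic and 15 of 17 S-phase genes had a log2 fold change above 0, where 50.5% of all genes did. The medians were 0.73 for mitotic and 0.86 for S-phase genes, against 0.01 for all genes. No gene passed the threshold (edgeR quasi-likelihood test, lowest Benjamini-Hochberg adjusted p = 0.746 among the 42, and 0.0% of all genes called). Of the 42, 4 had an unadjusted edgeR p under 0.05 with a higher level (Cdc20, Mcm2, Pcna and Mcm3), where 3.65% of all genes did, and none with a lower level, where 2.59% did. DESeq2 called none of the 42, and limma-voom called Aurka, where they called 0.932% and 1.83% of all genes in either direction. In 19 of the 42 genes (12 mitotic, 7 S-phase) all 3 Rel-null libraries lay above both wild-type libraries, where 14.8% of all genes did, and in none below them both, where 10.3% did.

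The mitotic regulators with separated groups included the exit from mitosis. Cdc20 read 12.3 and 12.5 CPM in wild-type skin and 63.0, 37.4 and 27.8 CPM in Rel-null skin. All 3 Rel-null libraries were above both wild-type libraries, and library 18 was the highest (1.79 ± 0.81, edgeR adjusted p = 0.784). Plk1 read 16.6 and 14.4 CPM against 22.2, 26.3 and 23.8 CPM, also without overlap (0.63 ± 1.10). Cdk1 read 40.6 and 21.8 CPM against 93.4, 46.9 and 42.3 CPM, where Rel-null skin 20 was just above wild-type skin 11 (0.96 ± 0.58).

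Aurka read 0 and 8.00 CPM in wild-type skin and 28.1, 20.2 and 16.1 CPM in Rel-null skin. The 0 stands in wild-type skin 11, a library of 23236280 counts in which 3 counts amount to 0.129 CPM of the raw total. Without wild-type skin 22, library 11 alone stood for wild-type skin and edgeR called Aurka (adjusted p = 0.00488), Ccnb2 (0.0185) and Ccnb1 (0.0454) by the quasi-likelihood test with Benjamini-Hochberg adjustment, a comparison against 1 library in which 2.22% of all genes were called higher. Ccnb1 read 0.975 and 18.6 CPM against 28.2, 27.7 and 17.6 CPM, and Rel-null skin 20 lay below wild-type skin 22. Foxm1 read 9.92 and 14.7 CPM against 21.7, 20.9 and 13.8 CPM, again with library 20 within the wild-type range.

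Mki67, unlike most of the 42, had a fold change below 0. It read 5.47 and 49.3 CPM in wild-type skin and 23.5, 6.87 and 12.6 CPM in Rel-null skin, a log2 fold change of -0.92 ± 1.12 with all Rel-null libraries between the 2 wild-type ones. Top2a read 28.7 and 59.9 CPM against 58.1, 55.2 and 54.6 CPM, with a fold change of 0.35 ± 0.55. The Rel-null libraries lay close together, just under wild-type skin 22. Cenpe read 9.79 and 17.6 CPM against 15.2, 9.08 and 16.5 CPM, and its fold change was -0.01 ± 1.41.

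Helicase and clamp genes had the smallest unadjusted p among the S-phase genes. Mcm2 read 7.12 and 28.5 CPM in wild-type skin and 76.6, 47.4 and 49.97 CPM in Rel-null skin, with no overlap (1.72 ± 0.69, edgeR adjusted p = 0.746). Pcna read 42.5 and 45.8 CPM against 129, 78.6 and 95.1 CPM, also with no overlap (1.19 ± 0.48, edgeR adjusted p = 0.746). Mcm3 read 28.9 and 17.3 CPM against 99.8, 38.2 and 28.1 CPM, where Rel-null skin 20 was just under wild-type skin 11 (1.25 ± 0.55, edgeR adjusted p = 0.784). Rel-null skin 18 was highest for all 3. Mcm5 read 33.6 and 11.8 CPM against 63.7, 36.3 and 20.5 CPM, with library 20 inside the wild-type range.

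Ccne1 read 22.5 and 12.8 CPM in wild-type skin and 48.4, 31.6 and 33.7 CPM in Rel-null skin. Its groups did not overlap (1.10 ± 0.57, edgeR adjusted p = 0.784). Rrm2 read 170 and 78.1 CPM against 116, 88.7 and 106 CPM, and E2f1 read 88.1 and 34.9 CPM against 75.6, 49.5 and 47.4 CPM. For both genes the wild-type libraries lay on either side of all Rel-null libraries, and the fold changes were -0.26 ± 0.84 and -0.10 ± 0.67.

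The skin values moved with the libraries that were kept. Wild-type skin 11 was the lowest skin library for 18 of 25 mitotic genes, wild-type skin 22 for 10 of 17 S-phase genes, and Rel-null skin 18 the highest for 12 of 17 S-phase and 12 of 25 mitotic genes. Keratinocyte markers moved with the groups: 14 of the 15 were read in each Rel-null library (Krt1 at 0) and 11 and 12 in the wild-type libraries, with the sums given above, and 13 of the 14 tested had fold changes above 0 (median 5.32). So did 11 of 12 leukocyte and macrophage markers (median 2.38), which summed to 39.4 and 118 CPM in wild-type and 117 to 167 CPM in Rel-null skin, with Adgre1, Itgam, Cd52 or Fcer1g at 0 in some libraries. The part of either cell type in the result was not tested. The mitotic median was 0.47 without wild-type skin 11 and 1.14 without wild-type skin 22. Without wild-type skin 22 the S-phase median was 0.45, without Rel-null skin 18 it was 0.56, and without the 4 gap libraries 1.02 with all 17 genes above 0. That last fit set Rel-null skin 19 and 20, which read Rel near the wild-type level, against wild-type skin 22 alone, the library of 2663437 counts. Without Rel-null skin 19 and 20, the libraries in which Rel was read near the wild-type level, 21 of 25 mitotic and 15 of 17 S-phase genes were above 0, with medians of 0.92 and 1.44. Library 18, a gap library, then stood alone for Rel-null skin.

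**Figure D4:**
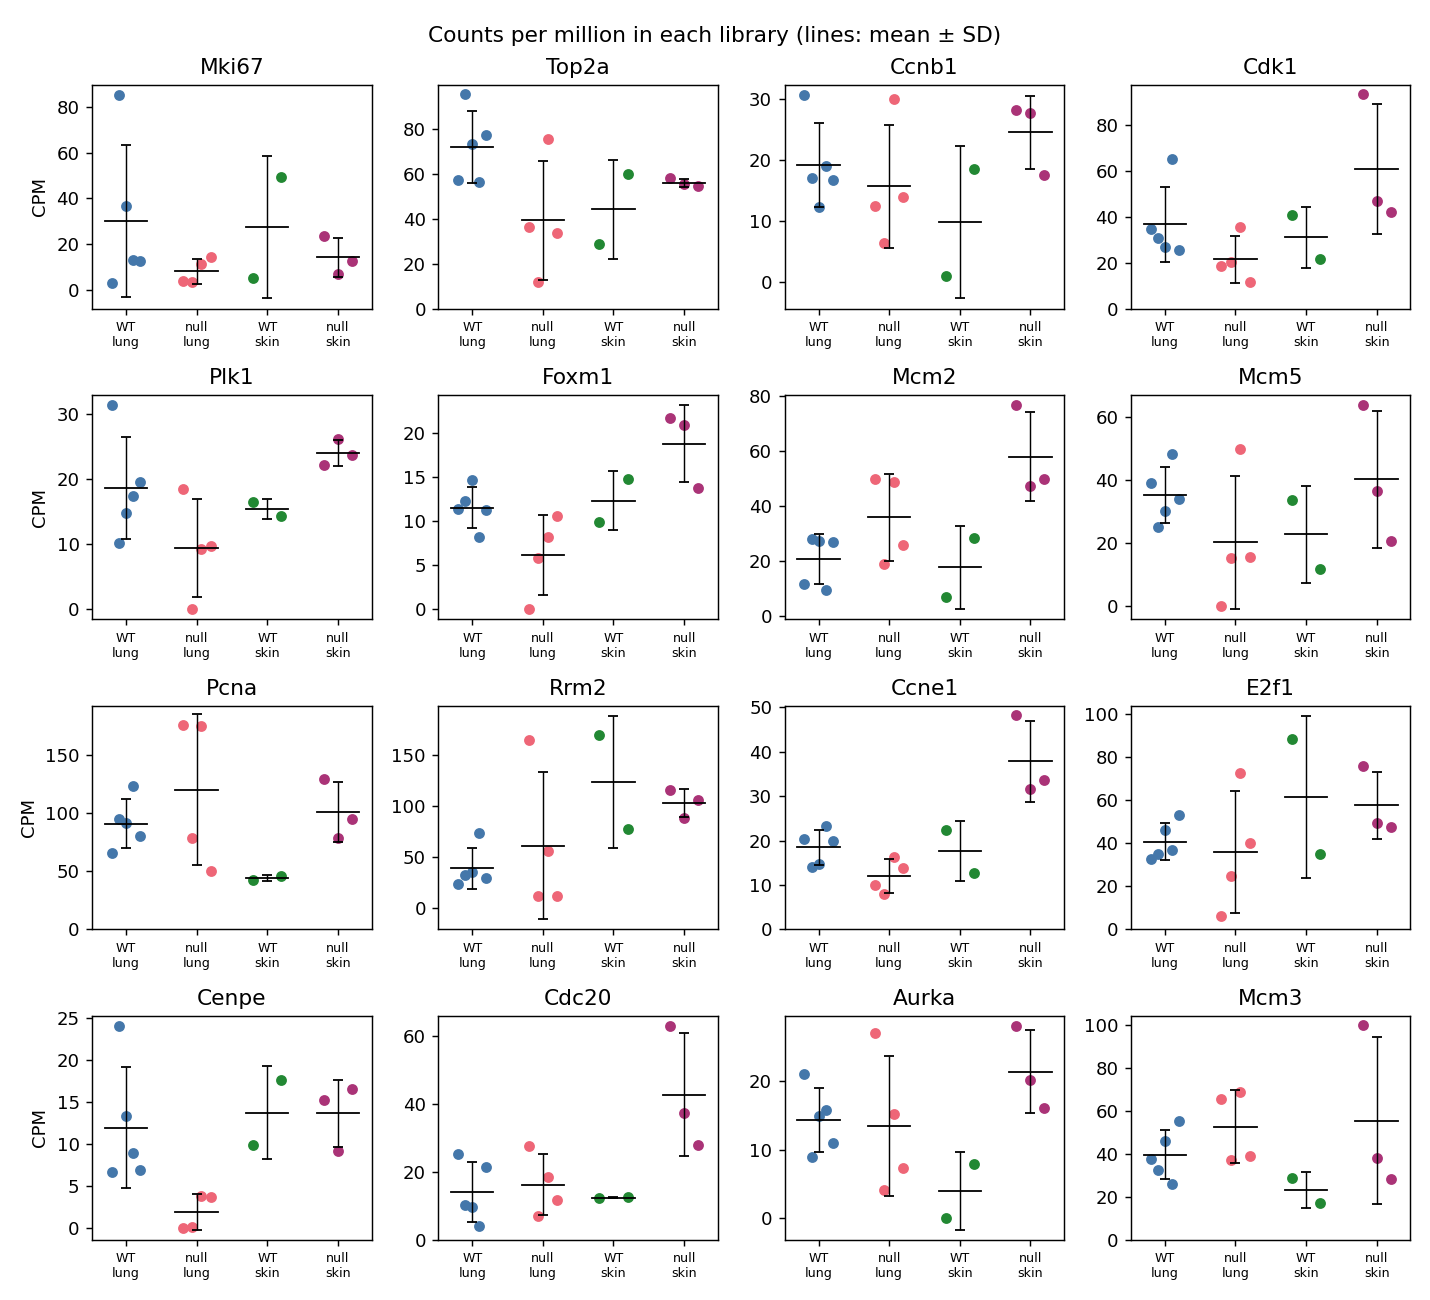
CPM of 16 genes in each library (points) with the group mean and SD (lines), for wild-type (WT) and Rel-null (null) cultures of lung (5 and 4 libraries) and skin (2 and 3); each panel has its own linear axis. Ccne1 in Rel-null skin lies above all other libraries, Cenpe in Rel-null lung below all others, and Mki67 and Rrm2 spread widely within groups.

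The genotype effects of the 2 tissues were then set against each other in the same fit. The difference between the skin and the lung effect was above 0 for all 25 mitotic genes and for 15 of 17 S-phase genes, where 55.6% of all genes were above 0. Its median was 1.23 for mitotic and 0.94 for S-phase genes, against 0.14 for all genes. Rrm2 (-0.92 ± 1.04) and Tyms (-0.12 ± 1.02), which both supply deoxynucleotides, were the 2 below 0. Cdk1 (1.73 ± 0.72) and Ccne1 (1.71 ± 0.70) had an unadjusted p under 0.05 with a positive difference, where 3.32% of all genes did. No gene passed the threshold (edgeR quasi-likelihood test, Benjamini-Hochberg adjusted p = 0.9999 for every one of the 42, and 0.0% of all genes called). DESeq2 called none of the 42, and limma-voom called Aurka, the gene with 0 counts in wild-type skin 11. Over all genes the 2 tools called 0.609% and 1.06% in either direction. The fit without wild-type skin 22 called Aurka and Ccnb2, and 2.08% of all genes. Without Rel-null skin 19 and 20 the difference was above 0 for 24 of 25 mitotic and 15 of 17 S-phase genes, with medians of 1.47 and 1.28.

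Skin was also compared with lung within each genotype, which uses the same groups again, so these values are not independent of those above. Cell-type markers differed strongly between the tissues. In skin, edgeR called 11 of 12 leukocyte and macrophage markers lower in both genotypes. It called 5 of 14 tested keratinocyte markers higher between the wild types and 10 of 14 between the Rel-null groups. Of 9 fibroblast markers, 1 was called higher and 1 lower in each genotype. The part of these cells in the values below was not tested. Between the wild types, 32 of 42 genes were lower in skin, where 54.9% of all genes were. The edgeR quasi-likelihood test called none of the 42, against 2.97% of all genes after Benjamini-Hochberg adjustment. An unadjusted p under 0.05 was reached by 2 of the 42, where 13.2% of all genes reached it, and in 6 both skin libraries lay below all lung libraries, where 10.7% of all genes did. DESeq2 called none and limma-voom called Aurka, where they called 7.51% and 4.03% of all genes in either direction. Without wild-type skin 22, edgeR called Aurka, Ccnb2 and Ccnb1 as lower in skin, beside 4.75% of all genes, and without wild-type skin 11, 13 of 25 mitotic genes in place of 5 had a fold change above 0. Pcna was lower in both wild-type skin libraries than in any wild-type lung library, at 44.2 ± 2.28 CPM (SD, n = 2) against 91.2 ± 21.3 CPM (n = 5), with a log2 fold change of -1.05 ± 0.45 (edgeR adjusted p = 0.307, Benjamini-Hochberg). Rrm2 was the reverse, with 124 ± 64.9 CPM in skin and 38.9 ± 20.1 CPM in lung (1.67 ± 0.73, edgeR adjusted p = 0.319).

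Between the Rel-null groups, 39 of 42 genes were higher in skin, where 48.4% of all genes were, and 9 of them did not overlap, where 11.6% of all genes did not. Ccne1 was the 1 gene of the 42 that was higher in skin past the threshold, which 1.82% of all genes were. It averaged 37.9 ± 9.12 CPM in Rel-null skin (SD, n = 3) and 12.0 ± 3.74 CPM in Rel-null lung (n = 4), and the lowest skin library (31.6 CPM) stood above the highest lung library (16.3 CPM). The log2 fold change was 1.66 ± 0.46 (edgeR quasi-likelihood test, Benjamini-Hochberg adjusted p = 0.0468). Ccne2, the second cyclin E gene, had a fold change of 1.49 ± 0.91 and groups that did not overlap either. Cdk1 came closest of the others, with 1.503 ± 0.47 and an adjusted edgeR p of 0.0813 (0.0288 with DESeq2, both Benjamini-Hochberg adjusted). DESeq2 called 3.96% of all genes as higher in Rel-null skin. In the wild types the same contrast gave -0.06 ± 0.50 for Ccne1 and -0.23 ± 0.52 for Cdk1.

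The edgeR call of Ccne1 was held by a narrow margin. DESeq2 and limma-voom also called it (Benjamini-Hochberg adjusted p = 0.000399 and 0.00167), where they called 3.96% and 14.9% of all genes as higher. The edgeR call ended when any of wild-type lung 1, 23, 3 or 5, Rel-null lung 8, 9 or 10, or Rel-null skin 18, 19 or 20 was left out. Its Benjamini-Hochberg adjusted p then ran up to 0.170, with fold changes from 1.47 to 1.84. The call also ended with no filter on low counts (1.69) and in a fit of the Rel-null groups alone (1.66). Without Rel-null skin 19 and 20 together, which left library 18 alone, the fold change was 2.01. Without the 4 gap libraries, edgeR called Ccne1 (1.42), Tpx2 (1.80), Prc1 (1.46), Rrm2 (1.92) and Kif20a (1.94) as higher in Rel-null skin, 5 of 42 where 5.25% of all genes were. Rel-null skin was then libraries 19 and 20. Without Rel-null lung 7 edgeR called Ccne1, Tpx2 and Kif20a as higher, where 3.08% of all genes were.

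Further genes of the cycle, from lists of which none of the 42 is a part, are described by the same counts. Of 31 other replication genes, 20 were lower in Rel-null lung and 26 higher in Rel-null skin, with medians of -0.17 and 1.03. Slbp, the histone messenger binding protein, stood at 1.19 ± 0.53 in lung, and Prim1, the catalytic primase subunit, at -1.17 ± 1.38 in lung and 2.63 ± 2.07 in skin. Chaf1b, a subunit of a histone chaperone, stood at 2.62 ± 2.06 in skin. Of 38 other mitotic genes, 26 were lower in Rel-null lung and 31 higher in Rel-null skin, with medians of -0.17 and 0.56. Dlgap5, a spindle protein, stood at -1.87 ± 1.42 and Ncaph, a condensin subunit, at -1.52 ± 0.67 in lung. In skin Spc24, a kinetochore subunit, stood at 2.55 ± 2.22 and Cdca3 at 2.23 ± 1.48. Prim1, Chaf1b, Spc24 and Cdca3 had 0 counts in wild-type skin 11, and Prim1 and Dlgap5 in Rel-null lung 7, both gap libraries. None of the genes in these lists passed the edgeR threshold in any of the 5 comparisons. In lung, 1 replication gene had an unadjusted edgeR p under 0.05 with a higher level, where 1.83% of all genes did. With a lower level, 2 mitotic genes had one in lung, where 4.49% of all genes did. In skin, 1 replication gene and 2 mitotic genes had one with a higher level, where 3.65% of all genes did. DESeq2 called no gene of these lists in the 5 comparisons, where it called from 0.311% to 10.8% of all genes. Limma-voom called none in lung, 1 replication gene (Pola1) and 3 mitotic genes (Ckap2l, Kif22, Ncapg) in skin, where it called 1.83% of all genes. Of these, Pola1, Kif22 and Ncapg had 0 counts in wild-type skin 11. Limma-voom called 1 and 4 in the difference between tissues (1.06% of all genes), 1 and 4 between the wild types (4.03%) and 4 and 12 between the Rel-null tissues (27.4%).

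The regulators upstream of S phase showed no lean. Of 23 regulators around cyclin D, RB and E2F, 11 were higher and 12 lower in Rel-null lung, and 12 higher and 11 lower in Rel-null skin, with medians of -0.02 and 0.06. E2f2 (0.67 ± 1.34) and Cks2 (-0.81 ± 1.30) had the largest fold changes in lung, and E2f7 (2.25 ± 2.21) and Cks2 (1.72 ± 1.86) in skin, among those of at least 5 CPM. E2f2 and Cks2 had 0 counts in Rel-null lung 7, Cks2 also in wild-type lung 4, and E2f7 in wild-type skin 11. EdgeR and DESeq2 called none of the 23 in any of the 5 comparisons, where they called up to 5.05% and 10.8% of all genes. Between the Rel-null tissues limma-voom called 6 (Ccnd1, Ccnd2, Cdk4, Cks1b, E2f2, Tfdp1), where it called 27.4% of all genes. It called none of the 23 in the other comparisons. Of 10 inhibitors of the cycle, 5 were higher in Rel-null lung and 9 in Rel-null skin (medians 0.03 and 0.65). Cdkn2c, which encodes the cyclin D kinase inhibitor p18, was lower in skin, with 32.5 ± 3.92 CPM in wild-type lung (SD, n = 5) and 9.25 ± 1.31 CPM in wild-type skin (n = 2), a log2 fold change of -1.81 ± 0.44 (edgeR quasi-likelihood test, Benjamini-Hochberg adjusted p = 0.0358). In Rel-null cultures it stood at 46.7 ± 14.7 CPM in lung (n = 4) and 16.98 ± 2.74 CPM in skin (n = 3), a fold change of -1.46 ± 0.37 (edgeR adjusted p = 0.0327, Benjamini-Hochberg). EdgeR called no other inhibitor in either comparison, where it called 2.97% and 5.05% of all genes. DESeq2 called Cdkn2c in both, and also Btg2 and Cdkn2d between the wild types. Over all genes DESeq2 called 7.51% between the wild types and 10.8% between the Rel-null tissues. Between the Rel-null tissues limma-voom called Cdkn2c, Cdkn1a and Cdkn2b, where it called 27.4% of all genes. Between the wild types it called Cdkn1b, Cdkn2a and Cdkn2d but not Cdkn2c, where it called 4.03% of all genes. Cdkn2a and Cdkn2d had 0 counts in wild-type skin 11. Cell-type markers differed between the tissues as given above, and their part in the Cdkn2c result was not tested. In the skin genotype comparison edgeR and DESeq2 called no inhibitor, where they called 0.0% and 0.932% of all genes. Limma-voom called Cdkn1b and Cdkn2a there, where it called 1.83% of all genes. In lung Btg2 (-0.68 ± 0.76) and Cdkn2a (0.64 ± 0.96) had the largest fold changes. Btg2, an antiproliferative gene, had the largest genotype difference of the inhibitors in skin (2.63 ± 1.16, edgeR adjusted p = 0.784), which did not pass the threshold, followed by Cdkn2d (1.90 ± 1.25).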

How the data were processed

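RNA sequencing was done on 14 libraries of mouse lung and skin explant cultures, grouped by their titles. The authors deposited one table of raw counts over 48795 Ensembl identifiers. FastQC 0.11.2, Trimmomatic 0.33, STAR 2.4.2a and GRCm38 appear in the submitters' processing notes, with no role or order. Which tool counted the reads, with what annotation and strand setting, is not given in the sources used here; a directional library kit is named per the labels' protocols. GENCODE M21 supplied symbols for 48435 gene identifiers, and 360 had none.

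Genes past edgeR's expression filter (minimum count 10, minimum total 15) numbered 16408 and included all 42 cell-cycle genes. They were tested in R 4.3.3 with edgeR 4.0.16 (TMM factors, quasi-likelihood fit of 14 libraries with 4 group means, common dispersion 0.948), with Benjamini-Hochberg adjustment over all tested genes and a threshold of 0.05. The SE printed with a fold change is its absolute value divided by the square root of the quasi-likelihood F statistic. It is an approximation and not a direct estimate from the fit. The edgeR steps were checked on simulated counts, for the lung genotype comparison only and without libraries that have gaps. Levels are CPM of TMM-scaled totals, and those of Rel and Xist are CPM of raw totals. Log2 levels used a pseudocount of 0.5 CPM. The limit of 3 counts set for a count of 0 covers counting error only. In lung, single genes were also compared by a two-sided exact permutation test over the libraries. The fits assumed that a group left with 1 library varied like the others.

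Library values are given for 12 genes chosen for their roles (Mki67, Top2a, Ccnb1, Cdk1, Plk1, Foxm1, Mcm2, Mcm5, Pcna, Rrm2, Ccne1, E2f1), for every cell-cycle gene past the threshold, and for the 3 of each phase with the smallest unadjusted p in each genotype comparison. Of the other cell-cycle lists, genes past the threshold and, for the 2 genotype comparisons, the 2 with the largest fold change among those of at least 5 CPM are named. The rule also covered the tissue comparisons and the cell-type markers, which are given here by counts and sums. The genes, lists and alternatives were chosen with earlier results of these data known. Alternatives were RLE and upper-quartile size factors, testing without a filter or with one of 1 CPM in 4 libraries, DESeq2 1.42.0 and limma-voom 3.58.1 with quality weights in place of edgeR, leaving out single libraries or 3 sets of them, and fits of only the groups compared. Promoter windows came from RefSeq (GRCm38.p6).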

Additional observations from a re-analysis of the deposited data

Results flagged for a closer look

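Of 90 sets of 4 or 5 lung libraries examined, 6 had a library far from the others of its group, a share of 6.67% where chance flags about 1 in 20. In 5 of them the library was wild-type lung 4, one of the libraries with many genes at 0 counts. It read Ccna2, a cyclin of S phase and mitosis, at 39.3 CPM against 23.8 to 26.8 CPM in the other wild-type lung libraries, Cdk1 at 65.4 CPM against 25.7 to 34.8 CPM, the helicase gene Mcm7 at 52.7 CPM against 25.5 to 32.8 CPM, and Rrm2 at 74.0 CPM against 23.7 to 35.3 CPM. The same library was far below the others for the spindle assembly gene Tpx2, with 7.11 CPM against 27.1 to 30.1 CPM. Rel-null lung 7, which also had many genes at 0 counts, read Tyms, the thymidylate synthase gene, at 81.4 CPM against 7.12 to 16.7 CPM in the other Rel-null lung libraries.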

How the results depend on the processing

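Values are log2 fold changes or numbers of cell-cycle genes called, by edgeR unless another tool is named. Size factors from RLE or the upper quartile and a filter of 1 CPM in 4 libraries changed no number of cell-cycle genes called, and RLE and the upper quartile reversed no named gene. Between Rel-null skin and Rel-null lung the 1 call became 0 with no filter, in the fit of only the groups compared and without Rel-null skin 19 and 20, 2 with DESeq2, 5 without the 4 gap libraries and 20 with limma-voom. With limma-voom, 1 gene was called in the skin genotype comparison, 1 in the difference between tissues and 1 between the wild types. Its mitotic medians were -1.10 in lung, 2.07 for the difference between tissues and 1.501 between the Rel-null tissues, and its S-phase median in skin was 0.43. Without the 2 libraries that read Xist, 3 genes were called in skin, 2 in the difference between tissues and 3 between the wild types, and the S-phase medians were 0.48 in skin and -0.045 between the wild types. The S-phase median was 1.44 in skin without Rel-null skin 19 and 20 and -0.70 between the wild types without the gap libraries. With each library left out in turn, the genes called ran from 0 to 3 between the Rel-null tissues, 0 to 3 in skin, 0 to 2 for the difference and 0 to 3 between the wild types. The S-phase medians then ran from -0.67 to 0.13 in lung, from 0.45 to 1.18 in skin and from -0.60 to 0.0027 between the wild types, and the mitotic median between the wild types from -0.83 to 0.020. Single genes that changed sign had not passed the threshold before, and the cause was not tested. In skin, Cenpe was at 0.062 with no filter, 0.0078 with the 1 CPM filter, 0.13 with limma-voom, 0.51 without the Xist libraries, 0.14 without Rel-null skin 19 and 20, and -0.33 to 0.47 with 1 library left out. Skin Mki67 was 0.30 with limma-voom, 1.41 without the Xist libraries and -1.75 to 1.39 with 1 library left out, the last without wild-type skin 22. Without the gap libraries skin Top2a, Rrm2 and E2f1 were -0.042, 0.40 and 0.56. With 1 library left out they ran from -0.053 to 0.96, from -0.72 to 0.45 and from -0.62 to 0.76, and the ends of changed sign came without wild-type skin 11. Skin E2f1 was 0.29 without Rel-null skin 19 and 20. In lung, limma-voom gave -0.0034 for Pcna, -0.80 for Rrm2, -0.42 for Cdc20 and -0.10 for Mcm3. Without the gap libraries lung Rrm2, E2f1 and Cdc20 were -0.16, 0.16 and -0.39. With 1 library left out they ran from -0.56 to 1.09, from -0.78 to 0.17 and from -0.17 to 0.53, and the ends of changed sign came without Rel-null lung 7. Lung Aurka was 0.11 without the Xist libraries and -0.69 to 0.20 with 1 library left out. Over all genes, edgeR called 0 in lung, 0 in skin, 0 for the difference, 487 between the wild types and 829 between the Rel-null tissues. DESeq2 called 51, 153, 100, 1233 and 1770, limma-voom 6, 300, 174, 661 and 4501, and edgeR with no filter 5, 58, 31 and 782 in the first 4 of these. The 20 cell-cycle genes called by limma-voom were all higher in Rel-null skin. They stand beside 14.9% of all genes called higher and 27.4% called in either direction. Without wild-type skin 22 edgeR called 421 in skin, 370 for the difference and 1050 between the wild types, without the Xist libraries 439, 365 and 1044, and without the gap libraries 87, 31 and 858, with 2171 between the Rel-null tissues. No paired analysis was possible because the labels' numbers are not shared between groups. Wild-type skin rests on 2 libraries, 1 of them with 2663437 counts, which limits every skin value.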
